A study of Mus musculus with 18 samples.

Results

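Transcripts of 10 genes that encode antibody constant regions and the joining chain were examined in mouse liver. They were the heavy-chain genes Ighm, Igha, Ighg1, Ighg2b, Ighg2c and Ighg3, the light-chain genes Igkc, Iglc1 and Iglc2, and Jchain. They were taken by gene name, as a fixed list, from a table of 54532 annotated genes, and all 10 were found. The livers came from 18 male C57BL/6J mice in 3 groups of 6. NC mice ate normal chow. HFD mice ate a high-fat diet for 14 weeks and then received saline with the diet continued. SZ-A mice ate the same diet and were then given SZ-A, an alkaloid preparation from mulberry twigs (Ramulus Mori). The study's methods give 6 weeks of treatment and the deposited design gives 8. The mice were 6 weeks old on arrival and were fasted overnight before the livers were taken. All 3 groups are wild-type animals, and the dose and route of SZ-A are not named for the sequenced mice. NC6 is labelled with the high-fat diet in one field although its title names chow, and it was kept with the chow mice.

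An antibody is made of paired heavy and light chains, and the constant gene of the heavy chain sets its class: Ighm for IgM, Igha for IgA and the Ighg genes for the IgG subclasses. C57BL/6 mice carry Ighg2c in the place that Ighg2a takes in some other strains. Most mouse light chains are kappa (Igkc) and the rest are lambda (Iglc1, Iglc2). Jchain encodes the joining chain, which links IgM and IgA into polymers, and the polymeric receptor Pigr then carries these across epithelial cells into bile and onto mucosa. Antibody genes are transcribed by B cells and, at far higher rates, by plasma cells. Liver receives such cells from blood and gut, and hepatocytes are not their source. In RNA from whole liver, fewer cells of a type and less RNA per cell cannot be told apart.

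The end of the secreted heavy chain is what separates the classes that bind the joining chain from those that do not. The last 63 coding bases of 4 secreted forms are shown for this reason, 5′ to 3′ and ending in the stop codon, with cysteine codons in capitals (GENCODE M21, GRCm38, minus strand).
Ighm: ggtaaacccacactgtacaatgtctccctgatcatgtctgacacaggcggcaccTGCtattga
Igha: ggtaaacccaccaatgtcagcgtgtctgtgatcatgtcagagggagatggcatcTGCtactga
Ighg2b: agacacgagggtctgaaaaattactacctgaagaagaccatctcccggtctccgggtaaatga
Ighg2c: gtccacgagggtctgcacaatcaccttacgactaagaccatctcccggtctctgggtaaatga
Both Ighm (chr12:113420867-113420929) and Igha (chr12:113258768-113258830) ended in a cysteine codon, 1 codon for tyrosine and the stop. That cysteine lies in the tailpiece to which the joining chain is bonded. The stretches of Ighg2b (chr12:113306389-113306451) and Ighg2c (chr12:113287389-113287451) held 0 cysteine codons, as did those of Ighg1 and Ighg3. Each stretch lay in 1 coding exon.

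The values were FPKM, the fragments of a gene divided by its length in kilobases and by the library size, which can be compared between genes as a level per length. Working back to whole fragments gave 17163191 to 20493907 fragments on genes per mouse, of which the 10 genes took 266 to 1589. Igkc was the most abundant, at a mean of 22.4 FPKM over the 18 mice, followed by Ighm at 6.22, Igha at 2.52, Ighg2c at 1.91, Jchain at 1.41, Iglc1 at 1.15 and Ighg2b at 1.02. The remaining 3 genes, Iglc2 (0.668), Ighg1 (0.325) and Ighg3 (0.214), had a mean under 1 FPKM and did not enter the tests across all genes. The authors' table divides by the length of all annotated exons, which is 2668 bases for Igha and 2678 for Ighg2b, although their secreted transcripts have 1100 and 1114 bases. For Ighg2c the corresponding lengths are 1326 and 1111 bases. Ighg2b thus stood below Ighg2c in FPKM while it had more fragments, 934 against 856 over all mice. The same divisor applies to every mouse, so it does not affect comparisons between groups.

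**Figure D1:**
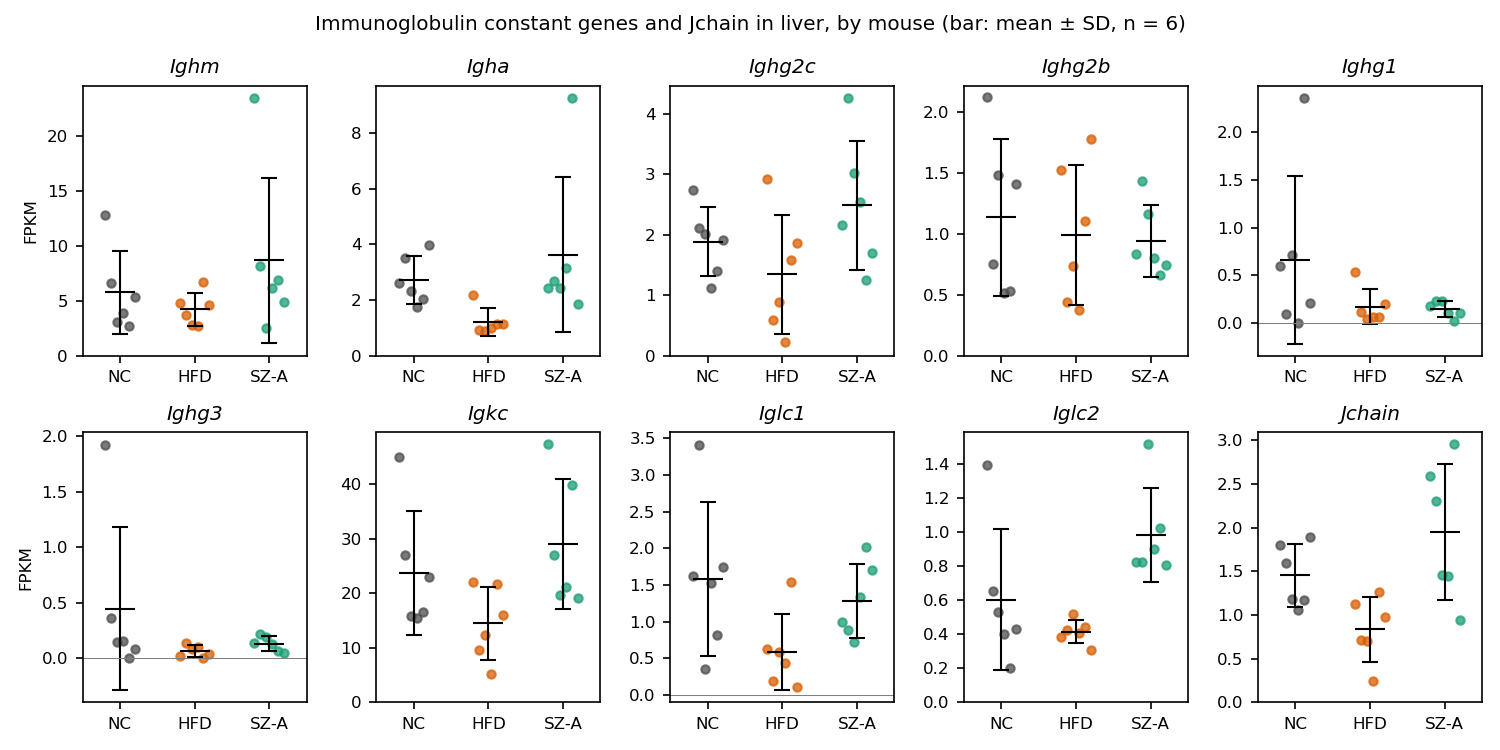
FPKM of each of the 10 genes (vertical axis, with its own scale in each panel) in the 6 mice of each group (points), with the group mean and SD (bars). Igha was at or below 1.14 FPKM in 5 of 6 HFD mice, and single mice stood far above their group for Ighm (SZ-A1, 23.4), Igha (SZ-A5, 9.26), Ighg1 (NC5, 2.36) and Ighg3 (NC1, 1.92).

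Igha, the constant gene of IgA, was lower in HFD mice than in NC mice. It lies on the minus strand of chromosome 12 (chr12:113254830-113260236). Its lowest, median and highest values were 1.76, 2.48 and 3.99 FPKM in NC mice, 0.879, 1.07 and 2.20 for HFD mice, and 1.86, 2.56 and 9.26 in SZ-A mice, from 44 to 432 fragments per mouse. In 5 of the 6 HFD mice Igha lay below every NC and every SZ-A mouse. The sixth, HFD1, reached 2.20 FPKM and overlapped the low end of both groups. The mean was 2.71 ± 0.865 FPKM in NC (SD, n = 6) and 1.22 ± 0.493 in HFD. Igha fell by 1.11 on the log2 scale of FPKM + 0.1 (SE 0.23, limma adjusted p = 0.00504 over 10216 genes), and all 6 HFD mice lay below the NC mean. It passed the threshold in 23 of 23 alternative settings in which it was tested, with adjusted p between 0.00138 and 0.0205. Without NC6 the difference was -0.99 (limma adjusted p = 0.010), and without HFD1 it was -1.28 (limma adjusted p = 0.00138).

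In SZ-A mice the Igha mean was 3.64 ± 2.79 FPKM, and all 6 mice lay above the HFD mean. The log2 difference from HFD was 1.35 (SE 0.33) with an unadjusted limma p of 0.00145, which did not pass adjustment over all genes (limma adjusted p = 0.102). The exact two-sided permutation test of Igha alone gave p = 0.00433. SZ-A5, at 9.26 FPKM, raised the SZ-A mean, and without it the log2 difference was 1.04 (limma adjusted p = 0.0697). SZ-A and NC mice differed by 0.24 (SE 0.33, limma adjusted p = 0.703), and this difference turned to -0.069 without SZ-A5.

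Ighm, the constant gene of IgM and IgM-bearing B cells (chr12:113418558-113422730), was the leading heavy-chain gene by FPKM in 16 of 18 mice. That lead depends on the length used, which is 1886 bases for Ighm and 2668 for Igha. By fragments, Igha exceeded Ighm in NC3 (115 against 106), NC5, NC6, SZ-A3 and SZ-A5. The lowest, median and highest values of Ighm were 2.75, 4.66 and 12.8 FPKM for NC, 2.75, 4.13 and 6.76 for HFD and 2.55, 6.51 and 23.4 for SZ-A mice. The groups overlapped over most of their range, and the high values belonged to NC1 and SZ-A1. The log2 difference was -0.31 (SE 0.34) for HFD against NC and 0.75 (SE 0.41) for SZ-A against HFD, with limma adjusted p = 0.555 and 0.424. Without SZ-A1 the latter was 0.40, and without NC1 the former was -0.040.

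Jchain, which encodes the joining chain (chr5:88519809-88527891), was ordered like Igha. Its lowest, median and highest values were 1.06, 1.39 and 1.89 FPKM for NC, 0.240, 0.845 and 1.27 for HFD and 0.941, 1.88 and 2.95 for SZ-A mice. All 6 HFD mice lay below the NC mean and all 6 SZ-A mice above the HFD mean, although neighbouring groups overlapped. HFD4 was the lowest mouse, with 12 fragments. The log2 difference was -0.83 (SE 0.30, limma adjusted p = 0.0661) for HFD against NC and 1.16 (SE 0.35, limma adjusted p = 0.156) for SZ-A against HFD. Exact permutation tests of this gene alone gave p = 0.0173 and p = 0.0130. By limma, the HFD against NC difference of Jchain passed the threshold in 4 of 23 alternative settings. These were a pseudocount of 1 (adjusted p = 0.0468), sample weights (0.0353), a replicate block (0.0452) and leaving out HFD5 (0.0408). Over all 23 the limma adjusted p reached 0.159.

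The light-chain genes had the same order of group means as Igha and Jchain for Igkc and Iglc2, but not for Iglc1, which was highest in NC. Igkc, the single kappa constant gene (chr6:70726435-70726966), had lowest, median and highest values of 15.5, 19.8 and 45.0 FPKM for NC, 5.20, 14.2 and 22.1 for HFD and 19.1, 24.0 and 47.4 for SZ-A mice. The log2 difference of Igkc was -0.75 (SE 0.35, limma adjusted p = 0.149) for HFD against NC and 1.06 (SE 0.35, limma adjusted p = 0.190) for SZ-A against HFD. HFD4 was the lowest mouse, and without it the difference for HFD against NC was -0.49 (limma adjusted p = 0.280). The 2 highest mice were again SZ-A1 and NC1. Iglc1, a lambda constant gene (chr16:19061618-19062071), rested on 1 to 27 fragments per mouse. It ranged from 0.360 to 3.41 FPKM for NC, from 0.105 to 1.55 for HFD and from 0.724 to 2.02 for SZ-A mice. Its log2 difference was -1.36 (SE 0.53, limma adjusted p = 0.0845) for HFD against NC and 1.25 (SE 0.44, limma adjusted p = 0.209) for SZ-A against HFD. The former passed the threshold in 3 of 23 alternative settings, with limma adjusted p up to 0.207 over all 23. These 3 were without HFD5, without NC3 and with all 18 mice in one limma fit (adjusted p = 0.0320, 0.0329 and 0.0455).

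Iglc2 (chr16:19198396-19200351) was the only one of the 10 genes whose SZ-A and HFD values did not overlap. Its lowest, median and highest values were 0.310, 0.419 and 0.523 FPKM in HFD (4 to 6 fragments) and 0.810, 0.864 and 1.52 in SZ-A mice (9 to 17 fragments). NC mice spanned both groups, from 0.202 to 1.39. Among the 10216 genes tested, 0.793% were higher in SZ-A without overlap, and the count among the 7 members tested was 0, since Iglc2 itself was below the filter. The exact permutation test of SZ-A against HFD gave p = 0.00216 for Iglc2, the smallest that 6 against 6 mice allow, and p = 0.0455 for SZ-A against NC. Over the 10 members this test, unadjusted, was under 0.05 for 5 in SZ-A against HFD, 2 in HFD against NC and 1 in SZ-A against NC. Among the 7 members tested across all genes the counts were 4, 2 and 0, where the same exact test was under 0.05 for 14.5%, 34.8% and 25.5% of the 10216 genes, in either direction. The counts for HFD against NC and SZ-A against NC were thus not above that background. With so few fragments the counting error alone was 24.3% to 70.7% of each value. Iglc2 also resembles its neighbour Iglc3, as the last 63 coding bases of the lambda genes show, with capitals marking bases that differ from Iglc2 (minus strand of chromosome 16, GRCm38).
Iglc2: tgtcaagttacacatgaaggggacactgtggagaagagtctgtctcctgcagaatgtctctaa
Iglc3: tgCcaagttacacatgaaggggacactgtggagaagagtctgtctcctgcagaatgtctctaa
Iglc1: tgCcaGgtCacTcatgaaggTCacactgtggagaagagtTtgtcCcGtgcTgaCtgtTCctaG
In these stretches (chr16:19198536-19198598, chr16:19065365-19065427 and chr16:19061752-19061814, in the order shown) Iglc3 differed from Iglc2 at 1 base and Iglc1 at 14 bases. Over the whole transcripts Iglc2 and Iglc3 were 94.3% identical with a longest shared run of 79 bases, so the fragments of these genes may be divided between them in an uncertain way. Iglc3 had 0 to 6 fragments per mouse, with means of 0.450, 0.145 and 0.264 FPKM for NC, HFD and SZ-A mice.

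None of the 4 gamma genes was called in any comparison in which it was tested, and differences between them were not tested. All 4 had a log2 value below 0 for HFD against NC and above 0 for SZ-A against HFD. For SZ-A against HFD, however, Ighg1 (0.012) and Ighg2b (0.070) were close to 0. Their mean FPKM was lower in SZ-A than in HFD (0.146 against 0.168 and 0.940 against 0.992). Ighg2c (chr12:113285325-113288932) was the leading gamma gene by FPKM in 16 of 18 mice. By fragments, Ighg2b exceeded Ighg2c in NC1, NC3, NC6, SZ-A5 and every HFD mouse, since FPKM divides Ighg2b by a longer length. The lowest, median and highest values of Ighg2c were 1.12, 1.96 and 2.74 FPKM for NC, 0.228, 1.24 and 2.93 for HFD and 1.25, 2.35 and 4.26 for SZ-A mice. It differed by -0.74 (SE 0.45) between HFD and NC and by 1.08 (SE 0.47) between SZ-A and HFD, with limma adjusted p = 0.260 and 0.314. HFD4 was the lowest mouse, and without it these differences were -0.38 and 0.72 (limma adjusted p = 0.488 and 0.436). Ighg2b (chr12:113302965-113307933) had medians of 1.08, 0.923 and 0.822 FPKM for NC, HFD and SZ-A mice. Its differences of -0.19 (SE 0.41) and 0.070 (SE 0.34) were within their errors, and their sign turned with single mice and, for SZ-A against HFD, with the scaling. Ighg2b and Ighg2c were 86.2% identical with a shared run of 78 bases.

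Ighg1 (chr12:113325240-113330523) and Ighg3 (chr12:113356224-113361232) were near the limit of detection in most livers and high in 1 NC mouse each. Ighg1 reached 2.36 FPKM in NC5, on 99 fragments, against 0 to 0.714 in the other NC mice, 0.0411 to 0.529 for HFD and 0.0221 to 0.233 for SZ-A mice. Ighg3 reached 1.92 FPKM in NC1, on 85 fragments, against 0 to 0.365 in the other NC mice, 0 to 0.139 for HFD and 0.0439 to 0.221 for SZ-A mice. A value of 0 still allows 3 fragments, which is 0.0571 FPKM for Ighg1 in NC4, 0.0737 for Ighg3 in NC5 and 0.0645 for Ighg3 in HFD5. For SZ-A against HFD, exact permutation tests gave p = 0.974 for Ighg1 and p = 0.0866 for Ighg3.

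**Figure D2:**
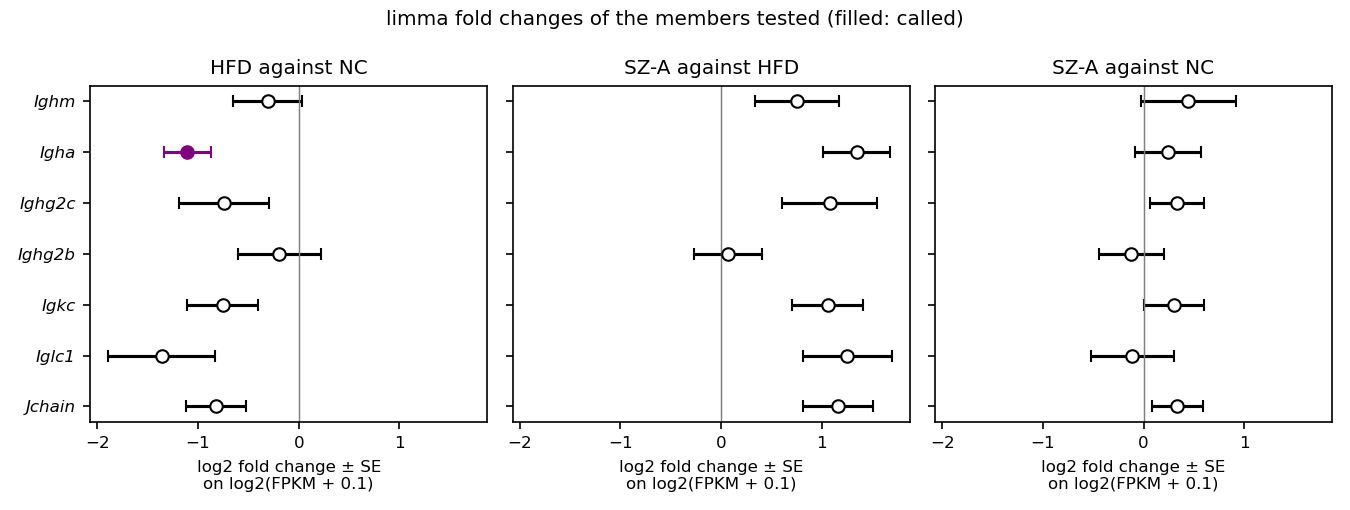
Log2 fold change with its SE (horizontal axis, on log2(FPKM + 0.1)) of the 7 genes with a mean of at least 1 FPKM, in the 3 comparisons, by limma. Igha in HFD against NC (-1.11) is the one filled point, the only one past the adjusted p of 0.05 with a fold above 1.2.

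Counted over the members, 1 of 7 tested was called lower in HFD than in NC, where 9.49% of all genes tested were called lower (20.2% in either direction). All 7 had a log2 value below 0, with a median of -0.75 beside -0.033 over all genes tested. At an unadjusted limma p under 0.05 there were 3 of 7, against 18.3% of all genes in that direction. None of the 7 was without overlap, against 4.97% of all genes. For SZ-A against HFD, 0 of 7 were called by limma, where 0.0783% of all genes were called higher and 0.147% in either direction. The median log2 difference was 1.08, beside 0.025 over all genes. At an unadjusted limma p under 0.05 there were 5 of 7 members higher in SZ-A (Igha, Jchain, Igkc, Iglc1 and Ighg2c), against 8.74% of all genes. Sample weights, as the one exception among the settings tried, called 1 (Igha, limma adjusted p = 0.0465). For SZ-A against NC 0 of 7 were called, and 0 had an unadjusted limma p under 0.05, where 9.60% of all genes were called. These comparisons share the HFD or the NC mice and are not independent of each other. Several members also vary together over the same mice (r = 0.932 for Jchain with Igkc). Counts of members are therefore not counts of separate observations.

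The scaling of the libraries moved the background of calls. With FPKM brought to a common sum per mouse, the median of all genes moved from -0.033 to 0.16 for HFD against NC and from 0.025 to -0.15 for SZ-A against HFD. The calls for HFD against NC moved from 1092 higher and 970 lower to 2128 higher and 334 lower. Igha remained called at -0.93 (limma adjusted p = 0.0176).

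The spread between mice of a group was wide for these genes. The SD of Igkc on the log2 scale was 0.60 for NC, 0.79 for HFD and 0.56 for SZ-A mice, against medians of 0.23, 0.19 and 0.19 over all genes tested. For the 3338 genes with a mean of 1 to 3 FPKM, the range in which 5 members lay, the median SD was 0.27, 0.24 and 0.24. Of the 7 members, Jchain in NC mice came closest to that level, at 0.33, and Ighg2c in HFD mice was the most variable, at 1.16. The highest liver held 9.11 times the Igkc of the lowest, 10.5 times the Igha and 12.3 times the Jchain.

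Livers high in one class were not high in all. As a share of the FPKM of the 6 heavy-chain genes, Ighm made up 30.2% to 56.2% for NC, 39.9% to 63.4% for HFD and 26.6% to 80.3% for SZ-A mice. Igha made up 11.5% to 30.7% for NC, 10.6% to 22.2% for HFD and 8.38% to 51.0% for SZ-A mice, with medians of 23.8%, 16.2% and 22.2%. The share of the 4 gamma genes ran from 11.0% in SZ-A5 to 48.0% in SZ-A3. SZ-A1 and SZ-A5 had similar Igkc, 47.4 and 39.9 FPKM, but the first was made up mainly of Ighm (80.3%) and the second of Igha (51.0%). Kappa made up 85.9% to 97.5% of light-chain FPKM over all mice, with group medians of 92.5%, 92.9% and 91.7%. These shares depend on the lengths given above, and they are descriptions without a test.

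**Figure D3:**
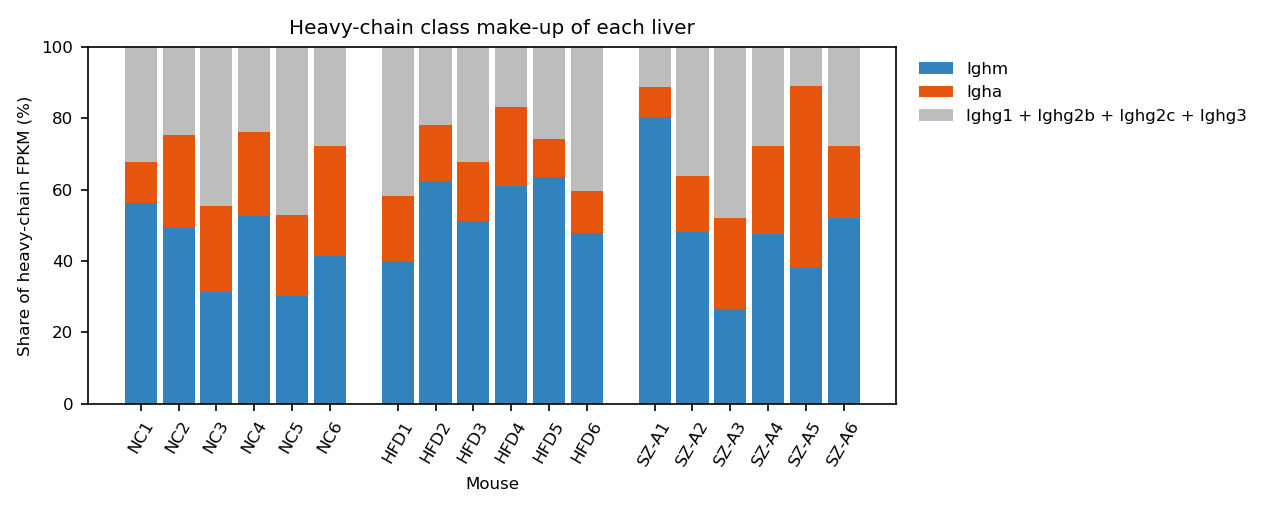
Share of heavy-chain FPKM (vertical axis, percent) from Ighm, Igha and the 4 gamma genes in each of the 18 mice. Ighm is the largest part in SZ-A1 (80.3%) and Igha in SZ-A5 (51.0%), while Igha stays at or below 22.2% in every HFD mouse.

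Among the other members, the correlation of Jchain across mice was highest with Igkc, the light-chain gene common to all classes. Over 18 mice, on log2(FPKM + 0.1), Pearson's r of Jchain with Igkc was 0.932 (permutation p = 1e-05, the smallest that 100000 resamples give, adjusted p = 9e-05 over 9 relations) and Spearman's rho was 0.901 (permutation p = 1e-05). The relation held with each value centred on its group mean (r = 0.895) and within NC, HFD and SZ-A mice (r = 0.819, 0.972 and 0.883). Without HFD4 and SZ-A5, the mice farthest from the Jchain median, r was 0.871. For Igha r was 0.785 (permutation p = 0.00023, adjusted 0.00103) and rho was 0.870 (permutation p = 1e-05), and r was 0.763 without those mice and 0.578 after centring. For Ighm r was 0.669 (permutation p = 0.00373, adjusted 0.00839) with a rho of 0.713 (permutation p = 0.00125), and r was 0.729 without those mice. For Ighg2c r was 0.752 (permutation p = 0.00082, adjusted 0.00246) with a rho of 0.602 (permutation p = 0.00953), and r was 0.739 without those mice. It was 0.771 and 0.917 within NC and HFD but -0.064 within SZ-A mice. The relations with Ighg1, Ighg2b, Ighg3, Iglc1 and Iglc2 had r of 0.129, 0.452, 0.239, 0.516 and 0.489. By Pearson's r they did not pass adjustment (permutation p = 0.598, 0.0567, 0.307, 0.0281 and 0.0376 before it). Their rho was 0.226, 0.397, 0.298, 0.600 and 0.616 (permutation p = 0.363, 0.103, 0.229, 0.00981 and 0.00775). By rho, Iglc1 and Iglc2 passed adjustment (permutation adjusted p = 0.0147 for both). With values centred on group means they did not (rho 0.327 and 0.162, permutation adjusted p = 0.276 and 0.591). After centring, Ighg2c and Ighg2b passed by r (0.630 and 0.555, permutation adjusted p = 0.0175 and 0.0284). By centred rho they did not (0.418 and 0.492, permutation adjusted p = 0.154 and 0.0902). Every gene shares its library with the others, so depth and scaling are common to both values of a point.

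**Figure D4:**
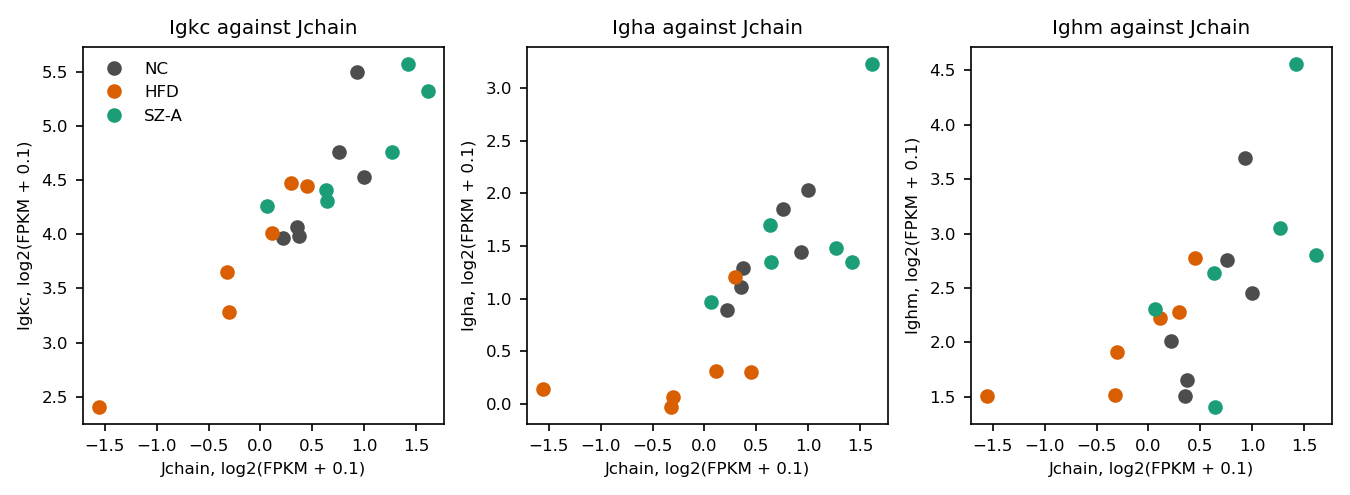
Igkc, Igha and Ighm (vertical axes) against Jchain (horizontal axis), all on log2(FPKM + 0.1), with 1 point per mouse coloured by group. The Igkc points lie nearest to a line (r = 0.932), and SZ-A5 for Igha and SZ-A1 for Ighm stand above the others.

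Outside the immunoglobulin segments, the genes whose order over the 18 mice was most like that of Jchain were Chmp7, Clec2d, Mrto4-ps1, Tmem30a and Cd47, with Spearman's rho of 0.767, 0.736, 0.732, 0.709 and 0.699 among 10207 genes. For Igkc they were Jchain at 0.901, Clec2d at 0.728, Rpl14-ps1 at 0.717, and Chmp7 and Mrto4-ps1 at 0.682. Both sets were picked as the highest of all genes ranked. Whether unrelated genes reach such values by chance among so many was not tested, so they are not established as related genes.

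The variable (V) segments, which form the antigen-binding end of each chain, carried fragments in the same livers and were read to describe each mouse's antibody transcripts. Of 115 annotated heavy V segments 86 had a fragment in some mouse, as did 80 of 100 kappa and 3 of 3 lambda V segments. Kappa V fragments numbered 28 to 170 for NC, 32 to 96 for HFD and 55 to 188 for SZ-A mice. The number of kappa V segments with at least 3 fragments ranged from 2 to 14 for NC, from 2 to 12 for HFD and from 7 to 24 for SZ-A mice. That number rises with the fragments read and is given without a test.

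NC1 and SZ-A1, the livers highest in Igkc and Ighm, were each led by segments that had fewer fragments in every other mouse. In NC1, Igkv14-126 (chr6:67896172-67896642) held 55 of 170 kappa V fragments, which is 32.4% (Wilson 95% interval 25.8% to 39.7%, counting error only). The other 17 mice had at most 3 fragments of it each, and it was seen in 6 mice in all. The leading heavy V segment of NC1 was Ighv11-2 (chr12:114048241-114048812), with 18 of 109 fragments (16.5%, interval 10.7% to 24.6%) against at most 2 in any other mouse. Ighv11-2 and Igkv14-126 are known as the heavy and light segments of B-1a cell antibodies that bind phosphatidylcholine, and such antibodies are mostly IgM. In SZ-A1 the leading kappa segment was Igkv19-93 (chr6:68736297-68736780), with 31 of 188 fragments (16.5%, interval 11.9% to 22.5%). The leading heavy V segment of SZ-A1 was Ighv1-9 (chr12:114583569-114584002), with 24 of 129 (18.6%, interval 12.8% to 26.2%). Elsewhere these segments reached at most 10 and 6 fragments. The next segments of SZ-A1 held 25 kappa and 21 heavy fragments. Igkv1-110 in SZ-A2 (31 fragments, at most 18 elsewhere) and Ighv3-6 in SZ-A5 (13, at most 5) were likewise highest in a mouse they led.

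In most other livers the leading segments recurred. Igkv1-110 (chr6:68270485-68271267) led or shared the lead in 9 of 18 mice and held 31 of 149 kappa V fragments in SZ-A2 (20.8%). Igkv1-117 was seen in 18 of 18 mice and led in 3. Ighv1-26 (chr12:114788372-114788805) led or shared the lead in 5 mice, with at most 10 fragments. Iglv1 (chr16:19085017-19085500) led the lambda segments in 17 mice. SZ-A5, the liver highest in Igha, had 24 kappa V segments at 3 fragments or more, the most of any mouse, and its leading one held 9.94%.

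**Figure D5:**
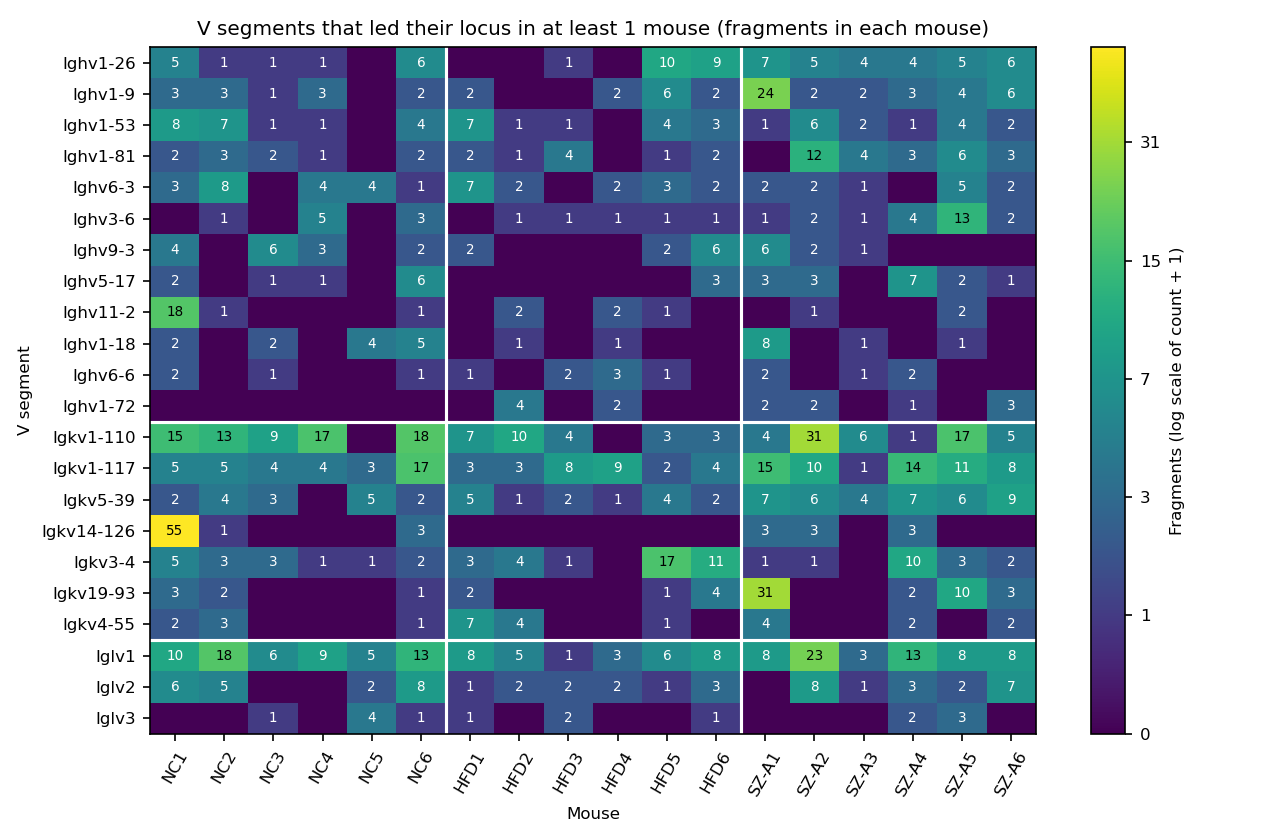
Fragments (numbers and colour, log scale of count + 1) of the V segments that led their locus in at least 1 mouse (rows), in each of the 18 mice (columns, white lines between groups and loci). Igkv14-126 with 55 fragments and Ighv11-2 with 18 have their highest counts in NC1, and Igkv19-93 with 31 and Ighv1-9 with 24 in SZ-A1.

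Most markers of the cells that make antibodies were at low levels. Of 16 B cell genes 1 reached a mean of 1 FPKM, Ralgps2, and it was not called in any comparison. Ms4a1 (CD20) averaged 0.0651, 0.0360 and 0.0364 FPKM for NC, HFD and SZ-A mice, and Cd79a, a chain of the B cell receptor, 0.339, 0.354 and 0.274. Some B cell genes had a higher mean in HFD than in NC, such as Cd22 (0.150, 0.332 and 0.201) and Bank1 (0.171, 0.274 and 0.304), both named after their values were seen. Others had a lower mean in HFD, such as Ralgps2 (2.09, 1.71 and 1.86), Cxcr5 (0.0800, 0.0346 and 0.0457) and Pax5 (0.0402, 0.0292 and 0.0443), likewise named afterwards. The summed level of the 16 genes ran from 2.98 to 7.32 FPKM for NC, from 3.55 to 6.24 for HFD and from 3.63 to 6.21 for SZ-A mice. Of 13 plasma cell genes 5 were tested, and hepatocytes also express several of them. Sdc1, Xbp1 and Txndc5 were abundant, at means of 75.2, 70.1 and 36.5 FPKM over the 18 mice. Sdc1, a cell-surface proteoglycan, fell by 0.49 in HFD against NC (limma adjusted p = 0.00786) and by 0.54 in SZ-A against NC. Txndc5 and Fkbp11, which help proteins fold in the endoplasmic reticulum, were called higher in SZ-A than in NC, by 0.46 and 0.67. The summed level of these 13 genes was 166 to 201 FPKM for NC, 158 to 249 for HFD and 164 to 214 for SZ-A mice. The plasma cell genes Mzb1 (0.513, 0.408 and 0.445 FPKM), Pou2af1 (0.104, 0.0852 and 0.186) and Prdm1 (0.118, 0.172 and 0.118) were low in all groups, and Tnfrsf17, a survival receptor, had at most 1 fragment in a mouse. Derl3, which acts in the removal of misfolded proteins, averaged 1.27, 5.84 and 4.12 FPKM, with a log2 difference of 1.73 (SE 0.71) for HFD against NC that did not pass (limma adjusted p = 0.102). Slamf7, below the filter, averaged 0.136, 0.307 and 0.110. Derl3, Xbp1 and Slamf7 were also named after their values were seen. Of the other constant genes, Ighd, the IgD gene, averaged 0.308, 0.372 and 0.225 FPKM, and Ighe and Iglc4 were at 0 in all mice.

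None of the antibody-binding genes tested was called lower in HFD than in NC, as Igha was. Of 10 receptor and transport genes 9 were tested, and 4 were called higher in HFD than in NC, where 10.7% of all genes were called higher. They were Fcgr1, the high-affinity IgG receptor (1.27), Cd5l, a macrophage protein that binds IgM (0.78), Fcer1g, the signalling chain of Fc receptors (0.66), and Trim21, an intracellular antibody receptor (0.51), as log2 differences with limma adjusted p = 0.00116, 0.0395, 0.00283 and 0.0336. None of the 9 was called between SZ-A and HFD, and Fcgr1 was called higher in SZ-A than in NC (0.81). The summed level of the 10 genes was 489 to 680 FPKM for NC, 658 to 889 for HFD and 691 to 796 for SZ-A mice. Pigr, the receptor for joining-chain polymers, averaged 404 ± 68.1, 495 ± 68.1 and 526 ± 49.3 FPKM and was not called in any comparison. Fcgrt, which recycles IgG, averaged 112, 109 and 118 FPKM. Of 13 genes for plasma cell homing and survival 3 were tested, and Tgfb1, which promotes switching to IgA, was called higher in HFD than in NC (0.60). The others tested, Cxcl13 and Cxcl12, were not called in any comparison. Their log2 differences for HFD against NC were -1.31 (SE 0.63) and 0.0057 (SE 0.13), with limma adjusted p = 0.157 and 0.982. Tnfsf13b, the B cell survival factor BAFF, was below 0.1 FPKM in each group.

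Genes of other cell types that could travel with blood or infiltrate were set beside the members. Of 5 red blood cell genes the 4 globin genes had the order of group means of Igha, and Alas2, which makes heme, did not (22.9, 32.8 and 28.5 FPKM). Hbb-bs averaged 152 ± 43.3, 116 ± 41.8 and 180 ± 44.4 FPKM for NC, HFD and SZ-A mice. None of the 5 was called, and their summed level was 193 to 388 FPKM for NC, 151 to 310 for HFD and 235 to 471 for SZ-A mice. Their part in the member differences was not tested. Of 11 Kupffer cell and macrophage genes 5 were called higher in HFD than in NC (Cd68, Adgre1, C1qa, C1qb and C1qc), and Cd68 was called lower in SZ-A than in HFD (-0.64). Cd68 and C1qb were also called higher in SZ-A than in NC (0.71 and 0.50). Of 9 neutrophil genes 3 were tested, and S100a8 and S100a9 were called higher in HFD than in NC (2.25 and 2.29) and in SZ-A than in NC (1.69 and 1.79, limma adjusted p = 0.0182 and 0.0362). None of the 14 T cell genes reached a mean of 1 FPKM, and Cd3e averaged at most 0.0945. Of 6 adipocyte genes Cfd was called higher in HFD than in NC (4.68) and Cidec lower in SZ-A than in NC (-1.76), while Adipoq averaged at most 0.202 FPKM. Of 9 pancreas acinar genes 4 were at 0 in all mice and Cela1 was called higher in SZ-A than in NC (1.12), and of 7 cholangiocyte genes Sox9 was called lower in SZ-A than in NC (-0.62). Of 8 hepatocyte genes 4 were called lower in HFD than in NC (Apoa1, Cps1, Serpina1a and Tat), and Cps1 also in SZ-A against NC, while Alb was abundant in all groups (29448, 21469 and 24030 FPKM).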

How the data were processed

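Poly-A RNA of 18 livers was sequenced as 150-base read pairs. Per the labels the authors used HISAT2 2.0.5 for alignment to GRCm38 and counted fragments per gene with featureCounts 1.5.0-p3. They deposited FPKM for 54532 genes in 1 table, without a filter on low values. Whole fragments were recovered from FPKM times gene length for 100% of values within 0.05 of a fragment, from 17163191 to 20493907 per mouse. No mice of a group were duplicates.

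Group and number of each mouse follow its title. On log2(FPKM + 0.1), limma 3.58.1 (R 4.3.3, eBayes with trend) was fitted to the 2 groups of each comparison for the 10216 genes with a mean of at least 1 FPKM over 18 mice. A call required a p below 0.05 after Benjamini-Hochberg adjustment with a fold above 1.2. The fit was tested on simulated data. Exact two-sided permutation tests enumerated 924 splits per member, on log2(FPKM + 0.1), and were not adjusted. Separate cages or litters are not stated, so p-values measure the spread between these mice. Correlations used 100000 permutations. Shares have Wilson intervals. Intervals and limits of 3 fragments cover counting error only, since PCR copies were not separated. Transcripts and coding ends were read from GENCODE M21. Python 3.11.15, numpy 2.4.6, pandas 2.3.3, scipy 1.17.1 and matplotlib 3.10.9 were used.

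Alternatives were pseudocounts of 1 and 0.01, no filter, a mean of at least 5 FPKM, a common sum per mouse, median-ratio scaling, voom on the recovered fragments, all 18 mice in one fit, eBayes without trend or robust, a replicate block, sample weights, leaving out each mouse, other fold-change limits, and V segments at 1 or 10 fragments in place of 3. The authors' DESeq2 test was not repeated.

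The members and the 13 gene lists were chosen with earlier results of these data known. Named are all members, list genes called in any comparison or defining a cell type, the 5 genes most like Jchain and like Igkc by Spearman's rho, and the V segment with most fragments in a mouse. One gene that this rule covers is not reported here. Membrane and secreted forms were not separated, as the table is per gene.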

Additional observations from a re-analysis of the deposited data

Results flagged for a closer look

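Each of the 10 genes was examined in each of the 3 groups for a mouse whose distance to the nearest other mouse took up more of the group's range than Dixon's 95% limit for 6 samples allows, on the FPKM scale. Chance alone passes that limit in about 1 in 20 groups for evenly spread values, and 8 of 30 passed. On the log2 scale 3 of these 8 still passed.

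Igha stood out in SZ-A5, at 9.26 FPKM against 3.15 in the next SZ-A mouse, and in HFD1, at 2.20 against 1.14 in the next HFD mouse. Both also passed on the log2 scale. Iglc2 in SZ-A3, at 1.52 FPKM on 17 fragments, was the other one that did. Ighm stood out in SZ-A1, at 23.4 FPKM against 8.18. Ighg1 stood out in NC5, at 2.36 FPKM against 0.714, and in HFD1, at 0.529 against 0.201. Ighg3 stood out in NC1, at 1.92 FPKM against 0.365. Iglc1 stood out in HFD5, at 1.55 FPKM on 13 fragments. All 8 were the highest mouse of their group. HFD1 passed for both Igha and Ighg1, and the other 6 came from 6 different mice.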

How the results depend on the processing

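For HFD against NC, 1 of 7 members was called (Igha). The count was 2 with a pseudocount of 1, with all 18 mice in one fit and with sample weights, and 0 with a mean of at least 5 FPKM, which leaves Igkc and Ighm alone to be tested. Leaving out 1 mouse gave 1 to 3, with 2 without NC3 and 3 without HFD5. For SZ-A against HFD the count was 0, and 1 with sample weights, and leaving out 1 mouse gave 0. For SZ-A against NC it was 0 in all settings. With a replicate block 2 members were called for HFD against NC, Igha and Jchain, and none for the other comparisons. The shared numbers are not said to pair the mice, and same-numbered mice correlated at -0.117 to 0.292. Differently numbered mice were not compared, so this range does not settle whether the numbers pair mice. The cause of the changes in these counts was not tested, apart from the smaller number of genes under the stricter filter.

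The log2 difference of Ighg2b for SZ-A against HFD turned to -0.00053 with a pseudocount of 1 and to -0.086 with a common sum, and ran from -0.13 to 0.26 when 1 mouse was left out, below 0 without HFD2, HFD4 or SZ-A2. When 1 mouse was left out, Ighg2b ran from -0.38 to 0.012 for HFD against NC (above 0 without NC1 or HFD4) and from -0.29 to 0.082 for SZ-A against NC (above 0 without NC1). For SZ-A against NC, Igha ran from -0.069 without SZ-A5 to 0.38, and Iglc1 from -0.43 to 0.15, above 0 without NC2 or SZ-A3. None of these had passed the threshold. The number of relations with Jchain that passed adjustment was 4 by Pearson's r, and 4 to 6 under the alternatives counted. By rho on values centred on group means, only those with Igkc, Ighm and Igha passed (permutation adjusted p = 9e-05, 0.0040 and 0.0366). A kappa V segment was counted as present at 3 fragments, with a median of 11 per mouse, and the median was 30.5 at 1 fragment and 1 at 10 fragments. Over all genes, the 8 higher and 7 lower calls for SZ-A against HFD became 0 with a replicate block and 108 higher and 125 lower with sample weights. Depth limits Iglc2, Iglc1, Ighg1, Ighg3 and single V segments most, which rest on few fragments.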
